A study of Homo sapiens with 72 samples.

Results

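KCNK3 and 4 other genes of the tandem-pore potassium channels (KCNK1, KCNK2, KCNK5 and KCNK6) were followed in IMR-90 cells, which are normal fibroblasts from human lung, after exposure to simulated α-particles. The members were every array probe that carried 1 of these 5 gene names and was not a control spot, which gave 9 probes of 41000 on the array. Each of 4 experiments held 3 groups at 6 times, namely 0.5, 1, 2, 4 and 6 h and then 24 h: irradiated cells on thin Mylar that received 0.5 Gy of helium ions, bystander cells on thicker Mylar in the same dish that shielded them from the particles, and sham-irradiated controls harvested at the same time. The 72 samples were thus 4 replicates in each of 18 groups, all of 1 untransfected fibroblast line grown in early passage, and each was hybridized to 1 one-colour array. The comparisons ask how the channels' mRNA changed in cells that were hit and in neighbours that were not. The genes were chosen by their measured differences between treated and control cells in earlier results of these arrays, so their values against control are given as a description, and nothing is read from their calls.

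Tandem-pore channels carry the background, or leak, potassium current that holds the resting membrane potential of a cell. Each subunit contains a pair of pore-forming loops, and a channel is formed by a pair of subunits. KCNK3 encodes TASK-1, an acid-sensitive leak channel best known in lung from the smooth muscle of the pulmonary artery, where loss of its function is linked to pulmonary arterial hypertension. KCNK2 encodes TREK-1, which is opened by membrane stretch and lipids, KCNK1 and KCNK6 encode the weakly rectifying channels TWIK-1 and TWIK-2, and KCNK5 encodes TASK-2, which is opened by alkaline pH outside the cell.

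The sequences below are the first 30 of the 60 bases of each KCNK3 probe and of the KCNK2 probe, as the scanner files give them, and are shown because each KCNK3 probe reads a different stretch of the transcript. The longest run of bases shared by any pair of the KCNK3 probes was 5. GC content over the whole probe was 35%, 55% and 60% for the KCNK3 probes in the order printed and 36.7% for the KCNK2 probe, against a median of 41.7% over all probes.
KCNK3 A_23_P357724: gacttcagactcaccataattgctgataat
KCNK3 A_23_P91104: aaatgtgaaacttggtggggtcagggagga
KCNK3 A_24_P388190: cgccgacgtgtccatggccaacatggtgct
KCNK2 A_23_P43713: gaatgagaattgtttctggtaacaatgtag

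Of the 9 member probes 7 gave usable values on every array. A probe was well above background when its signal exceeded the local background by 2.6 SD. KCNK3 A_23_P357724 and A_23_P91104, KCNK2 A_23_P43713, KCNK1 A_23_P126075 and the KCNK6 probes A_24_P262543, A_23_P50591 and A_24_P193961 were well above background on 72 of 72 arrays. KCNK3 A_24_P388190 was well above background on 44 arrays and KCNK5 A_23_P319423 on 21, so that both failed the limit of 10% of arrays and were not among the 25236 probes tested. No member probe was saturated on any array. Between 65.7% and 76.9% of all spots were well above background on an array, and at most 3 spots were saturated. Values are log2 signals after every array was scaled to the same 75th percentile, and a log2 difference of -1 is a halving.

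Against the labelled cell type, all 18 probes of 10 fibroblast genes, among them COL1A1, THY1 and PDGFRB, were well above background on every array. CDH1, an epithelial adhesion gene, was above background on 0 arrays, PECAM1 of endothelium on 2, and the 2 probes of PTPRC, carried by blood cells, on 0 and 1. Other genes of these lists were not at background: 4 of 7 epithelial genes (KRT8, KRT18, KRT19 and SFTPC), 3 of 6 endothelial genes (VWF, KDR and TEK) and 5 of 6 immune genes (CD3E, CD14, CD68, CD79A and ITGAM) had a probe well above background on every array. All 12 probes of 8 smooth muscle and pericyte genes, including ACTA2 and MYH11, were above background on every array. In such bulk samples fewer cells of a type and less RNA per cell cannot be told apart.

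Arrays of 1 experiment stood apart from the rest. In the pairs numbered 4 at 1 to 24 h, and in the pairs numbered 3 at 0.5 h, between 13.8% and 23.1% of all probes past the filter differed from their control by over 2-fold (12 pairs, median 20.2%). In the other 36 pairs the share ran from 0.808% to 15.6%, with a median of 3.97%. At 0.5 h the arrays numbered 3 resembled those numbered 4 at the other times, and the reverse, on 6 of 6 arrays, whereas at the other times this held for 1 of 30 arrays. In the value table that the authors deposited, the 6 columns of these 0.5 h samples held the scanner values of the other number, while the other 66 columns matched their own scanner file. Pairs of treated and control arrays are the same under either numbering, and the numbers below are those of the scanner files.

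KCNK3 was lower in irradiated and in bystander cells than in control cells, most of all at 6 h. The mean log2 difference of A_23_P357724, the brighter probe, fell from -0.76 at 0.5 h to -3.14 at 6 h in irradiated cells and from -0.78 to -2.26 in bystander cells. The control level moved as well, with means of 9.56, 10.47 and 11.15 at 4, 6 and 24 h. Irradiated means at these times were 7.87, 7.34 and 8.65, and bystander means 7.93, 8.21 and 9.30. The level itself was thus lowest at 6 h in irradiated cells but at 4 h in bystander cells. Both treated groups were lower in all 4 experiments at 6 h, by differing amounts, and the experiment that stood apart carried the deepest fall.

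At 6 h the signals of A_23_P357724 in replicates 1 to 4 were 9.61, 9.53, 11.57 and 11.18 in control cells. They were 7.62, 7.31, 9.35 and 5.07 in irradiated cells. They were 8.18, 8.66, 10.16 and 5.85 in bystander cells. Every irradiated array lay below every control array, as it did for 3.76% of all probes tested, whereas the bystander arrays overlapped with the controls because replicate 3 was high in all 3 groups. The paired log2 differences were -1.99, -2.22, -2.22 and -6.11 for irradiated cells, a mean of -3.14 ± 1.99 (SD, n = 4), or 8.79-fold lower. For bystander cells they were -1.43, -0.87, -1.41 and -5.33, a mean of -2.26 ± 2.06 (SD, n = 4), or 4.79-fold lower. Without replicate 4 the means were -2.14 ± 0.13 (SD, n = 3) and -1.24 ± 0.32 (SD, n = 3), that is, 4.42-fold and 2.36-fold lower, and all 3 remaining pairs were lower in each.

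At 24 h the control arrays of A_23_P357724 read 9.95, 10.68, 11.79 and 12.17. The irradiated arrays read 9.62, 9.33, 9.46 and 6.17. The bystander arrays read 10.38, 10.08, 10.26 and 6.49. Irradiated arrays again lay wholly below the controls, as for 1.99% of all probes, and bystander arrays overlapped with them, with replicates 1, 2 and 3 above the lowest control array. The mean log2 difference was -2.50 ± 2.47 (SD, n = 4) in irradiated and -1.84 ± 2.68 (SD, n = 4) in bystander cells, and without replicate 4 it was -1.34 and -0.57.

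At 4 h the control arrays of A_23_P357724 read 7.99, 9.21, 10.44 and 10.60. The irradiated arrays read 7.83, 7.46, 9.94 and 6.25. The bystander arrays read 8.05, 7.81, 9.75 and 6.11. The groups overlapped, and replicate 4 was the lowest treated array and the highest control. The mean log2 difference was -1.69 ± 1.90 (SD, n = 4) in irradiated and -1.63 ± 2.00 (SD, n = 4) in bystander cells, and -0.80 and -0.68 without replicate 4.

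At 2 h the control arrays read 8.94, 9.36, 10.37 and 10.10. The irradiated arrays read 8.09, 8.30, 9.43 and 7.24. The bystander arrays read 8.78, 8.70, 9.36 and 7.22. All 4 pairs of A_23_P357724 were lower in both treated groups, with means of -1.43 ± 0.96 (SD, n = 4) and -1.17 ± 1.18 (SD, n = 4), although the groups overlapped. Without replicate 4 the means were -0.95 and -0.61, with all 3 pairs lower in each.

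At 1 h the control arrays read 9.47, 9.67, 10.82 and 10.72. The irradiated arrays read 9.54, 9.49, 10.22 and 7.98. The bystander arrays ran from 8.35 in replicate 4 to 10.01 in replicate 3. In replicate 1 KCNK3 was level with its control in both treated groups, and 3 of 4 pairs were lower in each. The means for A_23_P357724 of -0.86 ± 1.29 and -0.91 ± 1.05 (SD, n = 4) became -0.23 and -0.43 without replicate 4.

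At 0.5 h the control arrays read 9.23, 8.92, 11.02 and 10.94. The irradiated arrays read 9.04, 8.75, 8.77 and 10.49. The bystander arrays read 9.18, 9.25, 8.07 and 10.46. The deepest paired fall in both treated groups was that of number 3, while the irradiated array numbered 4 stood above the other irradiated arrays. The means for A_23_P357724 of -0.76 ± 1.00 and -0.78 ± 1.48 (SD, n = 4) became -0.27 and -0.06 without replicate 3.

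**Figure D1:**
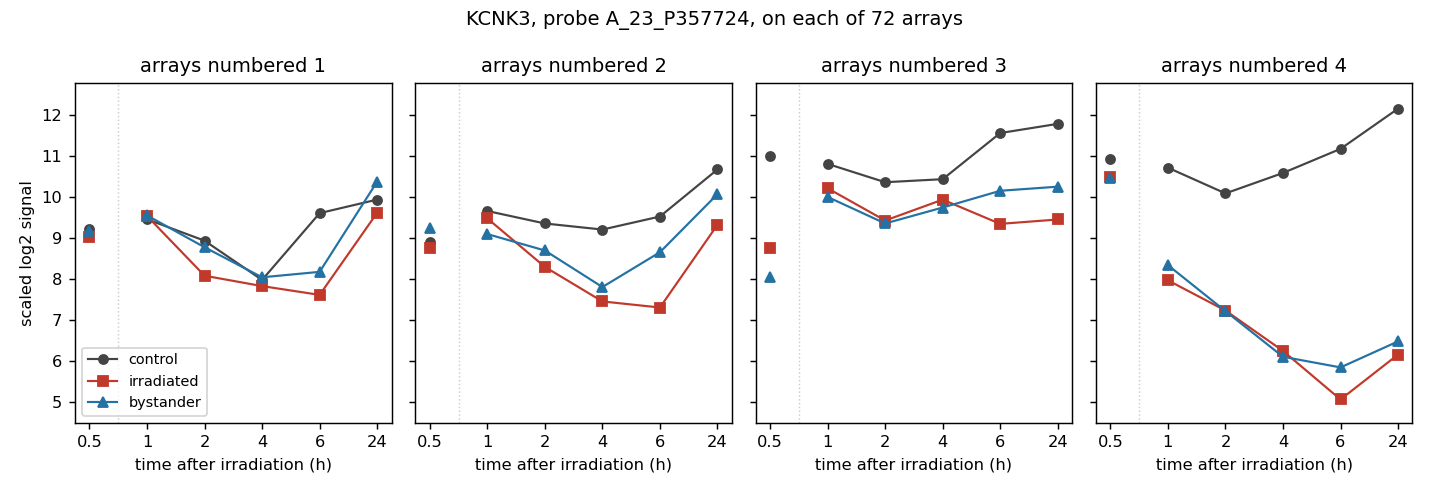
Scaled log2 signal of KCNK3 probe A_23_P357724 (y axis) against time in hours (x axis, evenly spaced) on each of the 72 arrays, 1 panel for each array number; grey circles are control, red squares irradiated and blue triangles bystander arrays. Points at 0.5 h are not joined, because arrays numbered 3 and 4 were exchanged there; the lowest points are those of number 4 at 6 h, 5.07 for irradiated and 5.85 for bystander cells.

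Control cells themselves differed between experiments. At 1 to 24 h the control signal of A_23_P357724 ran from 7.99 to 9.95 in replicate 1, from 9.21 to 10.68 in replicate 2, from 10.37 to 11.79 in replicate 3 and from 10.10 to 12.17 in replicate 4. Replicate 4 thus paired a high control with the lowest treated arrays, which ran from 5.07 to 7.98 in irradiated and from 5.85 to 8.35 in bystander cells. Ordered by mean, the 6 control groups took the highest places among the 18 groups, from 11.15 at 24 h to 9.56 ± 1.22 (SD, n = 4) at 4 h. The lowest places were held by irradiated cells at 4 h, 7.87 ± 1.54, and at 6 h, 7.34 ± 1.76. None of the 17 steps between neighbours in this order exceeded the smaller of their SDs, the largest step being 0.67.

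The second KCNK3 probe, A_23_P91104, gave the same order of groups at 6 h. Control arrays read 6.97, 7.30, 8.92 and 8.83. Irradiated arrays read 5.82, 5.74, 6.82 and 5.77. Bystander arrays read 6.56, 5.77, 7.37 and 5.50. All irradiated arrays lay below all controls, and all 4 bystander pairs were lower with overlapping groups. The mean log2 difference of A_23_P91104 at 6 h was -1.96 ± 0.83 (SD, n = 4) in irradiated cells, 3.90-fold lower, and -1.70 ± 1.21 (SD, n = 4) in bystander cells, 3.26-fold lower. Without replicate 4 the means were -1.60 and -1.16. At 24 h control arrays of A_23_P91104 read 7.40, 7.69, 8.74 and 9.49, irradiated arrays ran from 5.44 in replicate 4 to 7.86 in replicate 2, and bystander arrays read 7.70, 7.15, 7.61 and 5.56. The groups overlapped there, with 3 of 4 pairs lower in each treated group. From 0.5 to 24 h the irradiated means of this probe were -0.54, -0.96, -0.84, -1.15, -1.96 and -1.52. The bystander means were -0.41, -0.51, -0.71, -1.18, -1.70 and -1.32. Without replicate 4, and at 0.5 h replicate 3, the irradiated means were -0.16, -0.48, -0.47, -0.92, -1.60 and -0.67. The bystander means were then 0.16, -0.01, -0.24, -0.75, -1.16 and -0.46, above control at 0.5 h. The deepest of each series fell at 6 h, as with A_23_P357724.

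The third KCNK3 probe, A_24_P388190, was dim, and the number of arrays on which it could be measured differed by treatment. It was well above background on 21 of 24 control arrays, on 8 of 24 irradiated arrays and on 15 of 24 bystander arrays. At 2 h it was well above background on 4 of 4 control arrays and 0 of 4 irradiated arrays, with measured means of 5.61 and 4.62. At 4 h it was measurable on 2 control arrays and on no irradiated array, with measured means of 4.87 and 3.81. No fold difference or bound is given at either time, because irradiated signals not well above background do not fix the level of this probe. Across 48 paired differences from control, those of A_23_P357724 and A_23_P91104 correlated with r of 0.92, a description over pairs that share their controls and RNA. No r is given for A_24_P388190, because it was not well above background on most irradiated arrays.

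Each slide held arrays of all 3 groups, in part from different experiments, whose control levels differed. As the mean of a slide's treated arrays against that of its control arrays, A_23_P357724 was lower in irradiated than in control cells on 18 of 18 slides, with differences from -6.11 to -0.02, and lower in bystander cells on 16 of 18, from -3.79 to 0.11. A_23_P91104 was lower on 17 and 15 of 18. With the slide as a further block, the 6 h log2 differences of A_23_P357724 were -3.55 in irradiated and -2.88 in bystander cells. By mean difference KCNK3 ranked 2 from the lowest of 25236 probes at 6 h in irradiated cells and 3 in bystander cells. This rank is part of what brought the gene into view and is given as a description.

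KCNK2 was lower in both treated groups soon after exposure. At 0.5 h the control arrays of A_23_P43713 read 8.24, 8.15, 7.76 and 7.67. The irradiated arrays read 7.45, 7.55, 7.24 and 6.98. The bystander arrays read 7.60, 7.40, 7.14 and 7.10. All treated arrays lay below all control arrays, as held for 4.32% of all probes in irradiated and 2.74% in bystander cells. The log2 difference was -0.65 ± 0.12 (SD, n = 4) in irradiated and -0.64 ± 0.08 (SD, n = 4) in bystander cells, 1.57-fold and 1.56-fold lower, with the smallest spread of any KCNK2 time point in bystander cells. The bystander value rests on the background correction: from uncorrected spot means with normexp it was 0.12, and the irradiated value -0.45. At 0.5 h the fibroblast, epithelial and smooth muscle marker lists had median log2 differences of -0.32, -0.35 and -1.04 in irradiated cells. In bystander cells these were -0.35, -0.36 and -1.11. The means of these lists were lower than control in every pair. The endothelial and immune lists had medians of -0.06 and -0.17 in irradiated and 0.02 and 0.00 in bystander cells. The part of these lists in the KCNK2 values was not tested.

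KCNK2 differences at later times were more spread. At 1 h the irradiated mean was -0.94 ± 0.62 (SD, n = 4), lower in 4 of 4 pairs, and the bystander mean -0.67 ± 0.58 (SD, n = 4), lower in 3. At 2 h the means were -0.52 and -0.42, with 4 of 4 pairs lower in each, although under normexp the bystander mean was 0.21. From 4 h on the pairs ran both ways in both treated groups, lower in 2, 3 and 3 of 4 at 4, 6 and 24 h in each. In bystander cells the means were 0.18, -0.09 and -0.16. In irradiated cells the corresponding means were -0.21, -0.31 and -0.43. Over all times 20 of 24 irradiated and 19 of 24 bystander pairs of KCNK2 were lower than control. Unscaled, the irradiated values from 0.5 to 24 h were -0.69, -0.70, -0.91, -0.25, -0.67 and -0.83. The bystander values were then -0.79, -0.48, -0.70, 0.64, -0.29 and -0.33.

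KCNK1, the channel TWIK-1, overlapped with control at every time. Its 72 values on A_23_P126075 ran from 8.80 to 10.23. Mean log2 differences ran from 0.28 ± 0.52 (SD, n = 4) at 0.5 h to -0.46 ± 0.42 (SD, n = 4) at 6 h in irradiated cells, and from 0.19 ± 0.52 to -0.36 ± 0.57 in bystander cells at the same times. In each treated group 15 of 24 pairs were lower. Unscaled, the irradiated values from 0.5 to 24 h were 0.24, 0.27, -0.73, -0.18, -0.82 and -0.45. The bystander values were then 0.05, 0.14, -0.43, 0.32, -0.56 and -0.17.

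KCNK6, the channel TWIK-2 found on endosomes and lysosomes, was read by 3 probes that did not move alike. A_23_P50591 was higher than control in 19 of 24 irradiated pairs, with a largest mean of 0.59 ± 0.38 (SD, n = 4) at 6 h, or 1.51-fold higher. A_24_P262543 was higher in 17 of 24, with a largest mean of 0.36 ± 0.45 at 4 h. A_24_P193961 was also higher in 17 of 24, with a largest mean of 0.41 ± 0.20 at 2 h. In bystander cells 13, 12 and 14 of 24 pairs were higher for these probes in the same order. Differences of A_24_P262543 and A_23_P50591 correlated over the 48 pairs with r of 0.77, but A_24_P193961 correlated with them at only 0.21 and 0.12. The direction depended on the scaling at some times. Unscaled, the irradiated values of A_24_P262543 from 0.5 to 24 h were -0.10, 0.36, -0.13, 0.32, -0.01 and -0.21. Those of A_23_P50591 were 0.04, 0.44, 0.01, 0.44, 0.23 and -0.17, and those of A_24_P193961 -0.13, 0.33, 0.03, 0.05, -0.16 and -0.03. At the times of their largest scaled means all 3 probes thus also lay above control unscaled, A_24_P193961 by only 0.03. The array-wide median of the irradiated difference itself moved from 0.00 to -0.38 at 2 h when arrays were left unscaled, and between -0.48 and 0.42 over all 18 contrasts.

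KCNK5 could not be followed. Its single probe, A_23_P319423, was well above background on 7 control, 5 irradiated and 9 bystander arrays, with signals from 2.32 to 6.02 that crossed the background.

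**Figure D2:**
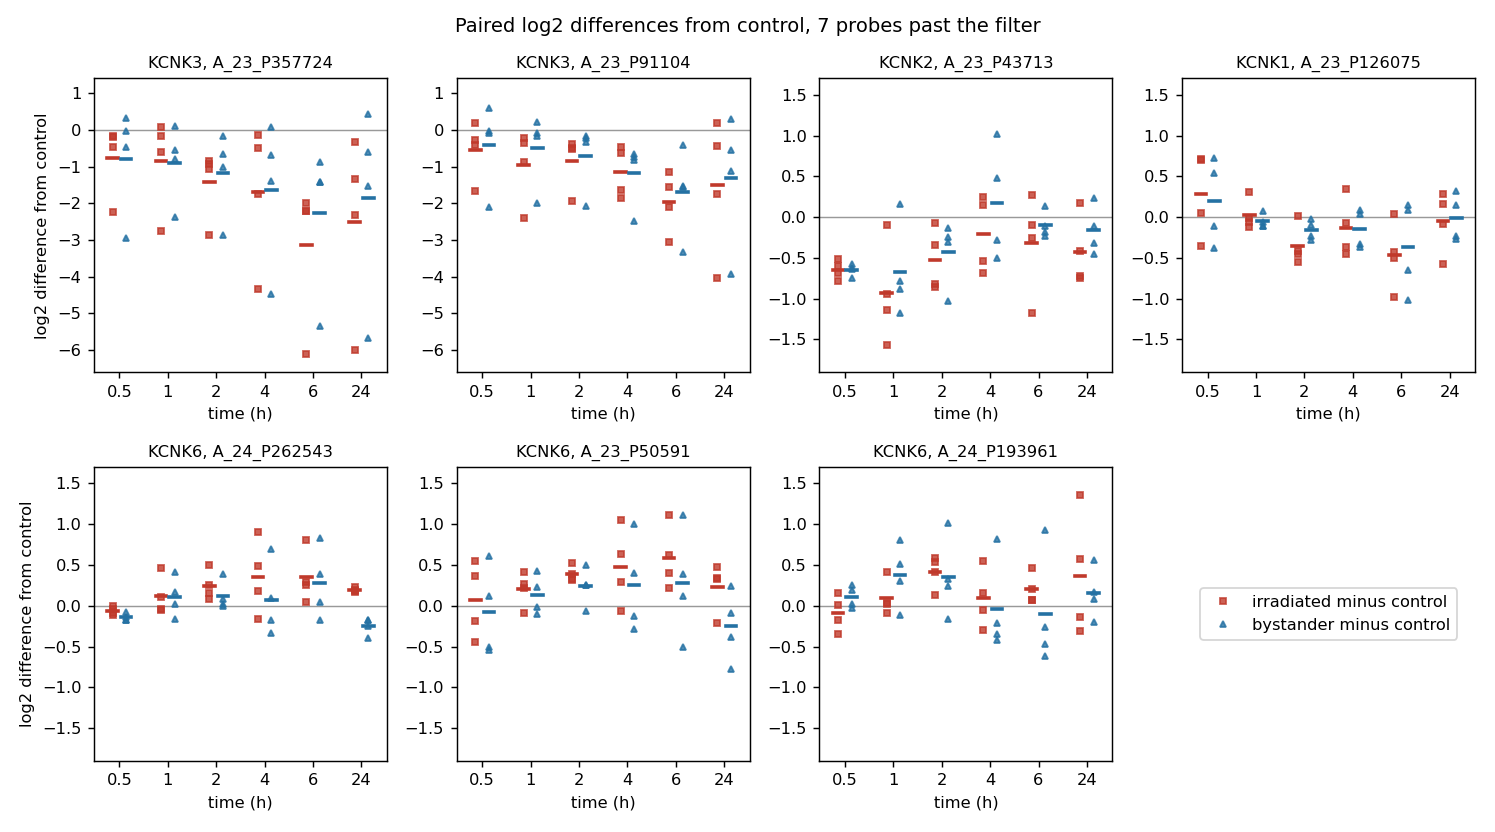
Log2 difference of each treated array from the control of its experiment (y axis) by time in hours (x axis, evenly spaced) for the 7 member probes past the filter; red squares are irradiated, blue triangles bystander pairs, and bars their means (n = 4). The panels of KCNK3 span a wider y axis than the rest: its lowest pairs reach -6.11, whereas the lowest pair of KCNK2 is -1.57.

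Counted with limma at an adjusted p below 0.10 over all 25236 probes, 4 of 42 member probe and time combinations passed as lower in irradiated cells: KCNK2 at 0.5 h, A_23_P357724 of KCNK3 at 2 and 6 h, and A_23_P91104 of KCNK3 at 6 h. From 0.5 to 24 h, the share of all probes that passed as lower in irradiated cells was 4.11%, 0%, 2.68%, 0.23%, 5.63% and 0.0594%, and the share that passed in either direction was 9.89%, 0%, 5.75%, 0.999%, 10.5% and 0.174%. In bystander cells 1 of 42 passed, KCNK2 at 0.5 h, as lower. There the share of all probes that passed as lower was 2.76%, 0%, 0.0238%, 0.0991%, 0.0753% and 0%, and in either direction 6.99%, 0%, 0.218%, 0.579%, 0.289% and 0%. No member passed as higher in either group. At an unadjusted p below 0.05, 6791 probes passed at 1 h in irradiated cells, and 3623 at 1 h and 2811 at 24 h in bystander cells. Since these contrasts chose the members, nothing is read from the counts. Each fit used 1 error estimate per probe for all 3 contrasts of a time. Over all probes, the SD of a pair's difference ran from 0.18 to 0.51 between irradiated and bystander arrays. Against control it ran from 0.30 to 0.88. The shared error can thus make an adjusted p against control too small, here and for the gene lists below.

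Leaving out the experiment that stood apart, a check chosen after seeing the data, gave 8 member calls in irradiated and 2 in bystander cells. Over the 6 times together, 4.42% and 2.86% of all probes passed in that fit, against 4.56% and 1.35% with all experiments. With the replicate block removed from the fit, 0 members and 0.0594% and 0.0178% of all probes passed.

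Irradiated and bystander cells were then compared with each other, a contrast that the choice of members did not name. It is the difference of the contrasts against control and uses the same treated arrays, so it is not independent of that choice. In limma 0 of 42 member combinations passed, where 11 of 25236 probes (0.0436%) passed at 2 h, 2 (0.00793%) at 4 h and 0% at the other times. At an unadjusted p below 0.05, 543, 1247, 283, 327, 383 and 102 of all probes passed from 0.5 to 24 h. Each count is under the share of 0.05 that chance alone would give, so the fit was conservative for this contrast. The lack of member calls therefore does not show that irradiated and bystander cells were alike.

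KCNK3 A_23_P357724 was lower in irradiated than in bystander cells at 6 and 24 h in all 4 experiments, and A_23_P91104 in 3 of 4 at each time, within the error of the fit. The log2 differences of A_23_P357724 were 0.02, 0.05, -0.25, -0.06, -0.88 and -0.66 from 0.5 to 24 h. At 6 h the 95% interval ran from -2.25 to 0.50 and at 24 h from -2.49 to 1.18, with limma adjusted p of 1.00 at both. The spread of the 4 pairs was narrower than these intervals, with an SD of 0.33 at 6 h and 0.23 at 24 h, since the fit takes its error from all 3 groups. A_23_P91104 differed by -0.26 at 6 h, with an interval from -1.06 to 0.54, and by -0.46 at 1 h, from -1.19 to 0.28. At 1 h all 4 pairs of this probe were lower, with an SD of 0.17. Unscaled, the differences of A_23_P357724 from 0.5 to 24 h were 0.13, 0.10, -0.36, -0.56, -1.04 and -0.89.

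KCNK2 differences ran from -0.38 at 4 h to -0.00 at 0.5 h, and their intervals lay between -0.91 and 0.30. Unscaled, the KCNK2 differences ran from -0.89 at 4 h to 0.11 at 0.5 h. KCNK1 differences ran from -0.19 to 0.08, with intervals between -0.60 and 0.51, and unscaled from -0.50 to 0.19. The KCNK6 probe A_24_P262543 stood 0.44 higher in irradiated than in bystander cells at 24 h, with an interval from 0.14 to 0.74 and a limma adjusted p of 1.00, and unscaled the difference was 0.21. After scaling, all 4 irradiated pairs of that probe were above control at 24 h, by 0.19 ± 0.03 (SD, n = 4), and all 4 bystander pairs below it, by -0.25 ± 0.11 (SD, n = 4). A_23_P50591 of KCNK6 leaned the same way, 0.49 with an interval from -0.01 to 0.98 and 0.25 unscaled, and A_24_P193961 was 0.22 higher, from -0.41 to 0.84, and -0.02 unscaled. At matched times the intervals of the scaled values thus kept the KCNK1 and KCNK2 differences under 1 on the log2 scale. Interval ends of KCNK3 lay past 1 from 2 h on for A_23_P357724 and at 1, 6 and 24 h for A_23_P91104.

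**Figure D3:**
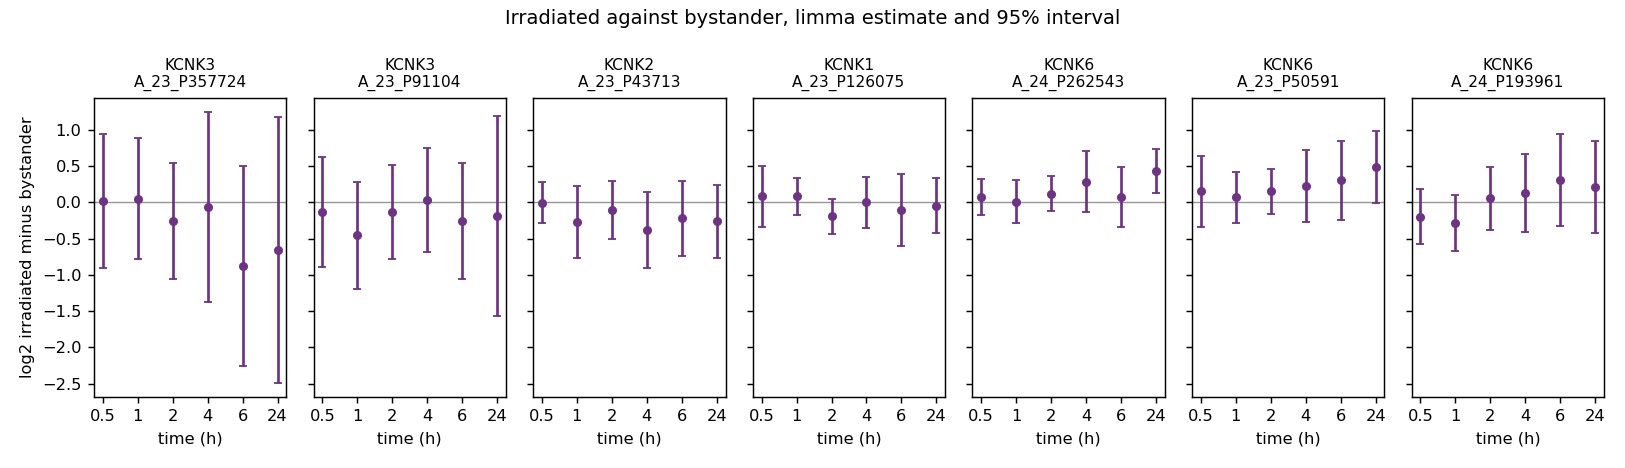
Log2 irradiated minus bystander difference (y axis) by time in hours (x axis, evenly spaced) for the 7 member probes, as the limma estimate with its 95% interval from 4 experiments. All KCNK3 and KCNK2 intervals include 0, and only that of KCNK6 A_24_P262543 at 24 h, 0.14 to 0.74, lies wholly above it.

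The rest of the tandem-pore family was largely below background. Of 10 further genes with 13 probes, only KCNK4, KCNK7 and KCNK15 had a probe past the filter, and 0 of their 18 combinations passed in either treated group. From 0.5 to 24 h the median log2 difference of their 3 probes was -0.37, -0.57, 0.29, -0.28, 0.01 and 0.50 in irradiated cells. In bystander cells it was 0.01, -0.08, 0.36, -0.29, 0.00 and 0.29. The medians over all probes lay between -0.06 and 0.02 in irradiated and between -0.04 and 0.01 in bystander cells.

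Other potassium channel genes, taken as every gene name beginning with KCN outside this family, passed in both directions in small numbers. Of 80 genes, 24 had a probe past the filter. Of 180 combinations of their 30 probes and the times, 5 passed as higher and 7 as lower in irradiated cells, and 2 as higher and 2 as lower in bystander cells. Over the 6 times 4.56% and 1.35% of all probes passed in irradiated and bystander cells. At 0.5 h 4 passed as higher and 3 as lower of 30 in irradiated cells, where 9.89% of all probes passed. KCNH2, which encodes the hERG channel of the rapid delayed rectifier current, fell by 1.35 ± 0.49 (SD, n = 4) at 0.5 h in irradiated cells with a limma adjusted p of 0.023, and by 1.31 in bystander cells. KCNIP3, a calcium-binding subunit of voltage-gated channels also known as the repressor DREAM, fell by 0.65 at 2 h and 0.71 at 6 h in irradiated cells. KCNJ15, an inward rectifier, rose at 0.5 h by 1.23 ± 0.62 in irradiated and 1.21 ± 0.80 in bystander cells. KCNQ1OT1, a non-coding antisense transcript of the KCNQ1 locus that encodes no channel, rose by 1.27 and 1.33 at the same time. None of these genes passed between irradiated and bystander cells.

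Among 22 measured partners and regulators of these channels, 4 combinations passed as higher and 1 as lower of 258 in irradiated cells, and 0 and 1 in bystander cells. At 0.5 h 4.65% of these probes passed in irradiated cells, against 9.89% of all probes, and at 6 h 6.98% against 10.5%. In bystander cells 2.33% of these probes passed at 0.5 h, against 6.99% of all probes. EDN1, the endothelin peptide that closes TASK-1 through its receptor in vascular smooth muscle, rose at 6 h in irradiated cells by 1.75 ± 1.04 (SD, n = 4), with a limma adjusted p of 0.034. ARF6, a small GTPase tied to the internalization of TWIK-1, rose by 0.54 at 6 h. PLCB1, a phospholipase that acts below receptors coupled to Gq, rose by 0.49 at 0.5 h. YWHAH, a 14-3-3 protein of the kind that binds the tail of TASK channels, fell by 0.52 at 0.5 h in bystander cells.

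The sodium-potassium pump builds the potassium gradient that these channels leak. Of 13 probes of its subunits and regulators, 7 passed as lower and 0 as higher in irradiated cells at 6 h, with a median of -0.70 against 0.02 over all probes. In bystander cells 2 passed as lower, with a median of -0.48 against -0.01. At 6 h 5.63% of all probes passed as lower in irradiated and 0.0753% in bystander cells. At 0.5 h 2 passed as higher and 2 as lower of 13 in irradiated cells, and 1 and 1 in bystander cells, where 9.89% and 6.99% of all probes passed. ATP1B1, a β-subunit of the pump and named after its values were seen, gave the higher ones, with both of its probes up in irradiated cells by 0.94 and 0.72 and 1 up in bystander cells by 0.76. At 6 h ATP1A4, named for a catalytic subunit best known from sperm, fell by 1.56 in irradiated and 1.05 in bystander cells on a probe that may share signal with related subunits. FXYD1, the regulator phospholemman, fell by 1.18 at 0.5 h and 1.28 at 6 h in irradiated cells and by 1.02 in bystander cells at 0.5 h. FXYD6, another regulator, fell by 0.60 and 0.70 in irradiated cells at these times.

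**Figure D4:**
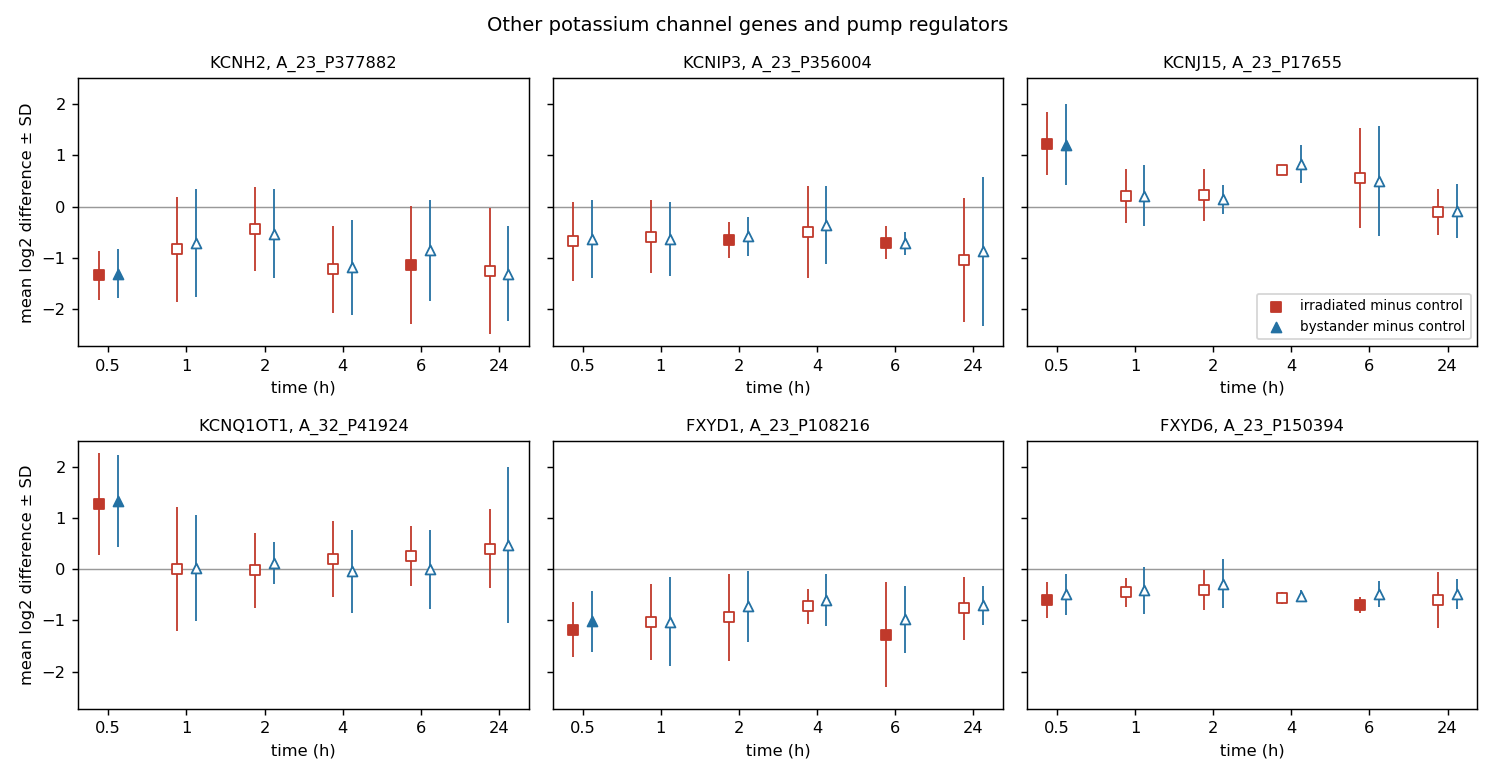
Mean log2 difference from control (y axis, bars are SD of 4 pairs) by time in hours (x axis, evenly spaced) for 4 other potassium channel genes and the pump regulators FXYD1 and FXYD6; red squares are irradiated and blue triangles bystander cells, and filled symbols passed limma at an adjusted p below 0.10. The 0.5 h points of KCNH2, -1.35 and -1.31, are filled in both groups.

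Some smooth muscle markers fell in these cells too. At 0.5 h, 5 of 12 probes of the list passed as lower in irradiated and 6 in bystander cells, where 4.11% and 2.76% of all probes did. At 6 h 2 and 0 passed, where 5.63% and 0.0753% of all probes did, and at the other times 0 passed in either group. ACTA2, the smooth muscle actin, fell by 1.64 ± 0.73 (SD, n = 4) at 0.5 h in irradiated and 1.93 ± 0.43 in bystander cells. MYH11, DES and SMTN fell at 0.5 h in both as well. The mean of the whole list differed from control at 0.5 h by -0.64, -0.58, -0.35 and -2.16 in irradiated replicates 1 to 4, and by -0.68, -0.78, -0.62 and -2.03 in bystander replicates. At 6 h the same means were 0.15, 0.20, -1.63 and -0.42, and 0.04, -0.05, -1.63 and -0.07. The list was lowest in replicate 3 at 6 h, where KCNK3 A_23_P357724 differed by -2.22 and -1.41, and KCNK3 was lowest in replicate 4. The fibroblast markers were lowest in replicate 4 at 6 h, by 0.90 below control in irradiated and 0.78 in bystander cells, and 1 of their 18 probes passed at that time in irradiated cells. The part of either list in the KCNK3 values was not tested.

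The genes whose differences ran most like those of KCNK3 A_23_P357724 were found by Pearson's r over 48 paired differences from control, which share controls within each experiment. The closest were ST8SIA1, the sialyltransferase that makes ganglioside GD3, with r of 0.96, the transmembrane gene TMEM116 with 0.95, the alcohol dehydrogenase ADH1C with 0.95, CASP12 with 0.95, ADH1A with 0.94 and the unnamed transcript THC2495068 with 0.94. ADH1A and ADH1C are close paralogues whose probes may share signal. The most opposite were PLAUR, the urokinase receptor, with -0.95, the scaffold gene MPP3 with -0.95 and the fatty acid carrier FABP5 with -0.93. At the lower cut of 0.80, r was above 0.80 for 342 and below -0.80 for 301 of 25234 probes. At 6 h ST8SIA1 differed from control by -1.72 ± 1.97 (SD, n = 4) in irradiated and -1.59 ± 1.99 in bystander cells, and PLAUR by 1.08 ± 0.93 and 0.91 ± 0.82. Without replicate 4 the r of these 9 genes lay nearer 0, at 0.86 for ST8SIA1 and -0.80 for PLAUR. Number 4 was left out at every time, so the experiment that stood apart still entered these r through its pairs at 0.5 h.

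**Figure D5:**
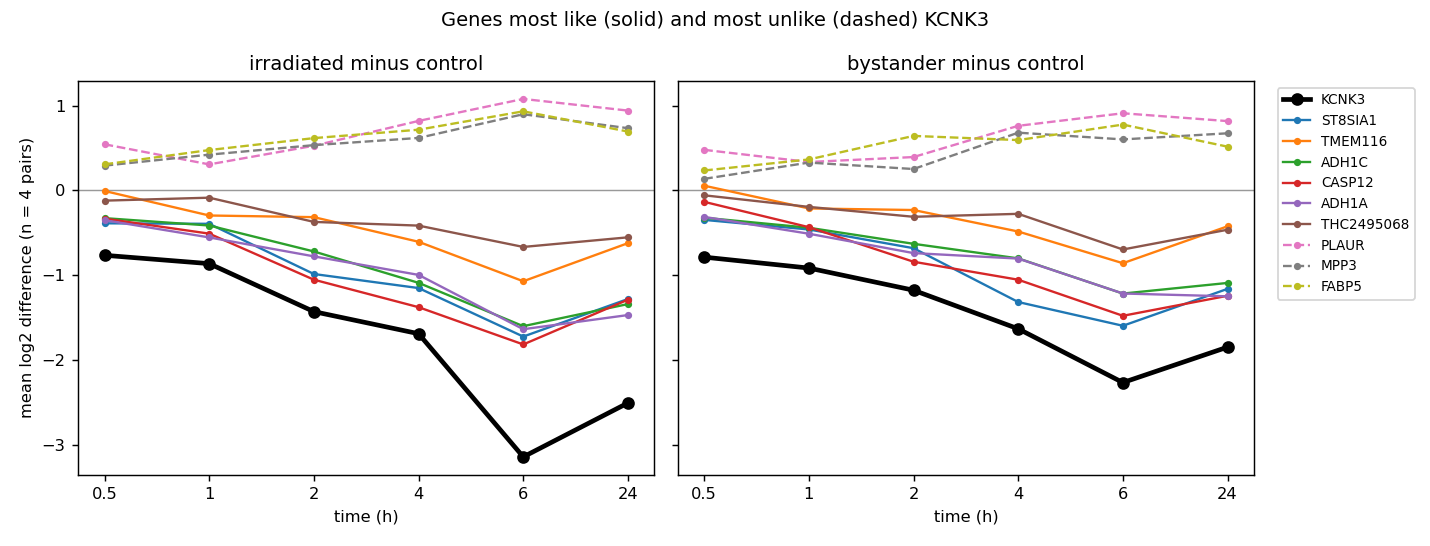
Mean log2 difference from control (y axis, n = 4 pairs) by time in hours (x axis, evenly spaced) of KCNK3 A_23_P357724 (thick black line), the 6 genes most like it (solid) and the 3 most opposite to it (dashed), in irradiated (left) and bystander cells (right). KCNK3 has the lowest point, -3.14 at 6 h in irradiated cells, and PLAUR the highest there, 1.08.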

How the data were processed

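RNA from irradiated, bystander and control IMR-90 cells was measured on one-colour Agilent arrays, and the authors deposited scanner output from Feature Extraction 9.1.3.1. Per the file headers, the intensity used was the processed signal, background-subtracted by the scanner software, with flags for background, uniformity and saturation. The deposited value table holds log2 of that intensity, unscaled; it was an alternative here. The genome build of the probe design was not given in the sources used here.

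Signals of a probe's spots were averaged, non-uniform spots left out, arrays scaled to a common 75th percentile, values floored at 5 and log2 taken. Probes failing the background or uniformity flags on over 10% of arrays were left out, which left 25236. limma 3.58.1 (R 4.3.3) was fitted at each time to 12 arrays, with treatment and the experiment number as terms and an intensity trend, and p-values were adjusted by Benjamini-Hochberg. Per the study's methods, each experiment ran its 3 groups in parallel on cells of a shared pool, which is the source of the pairing. Same-numbered arrays of a time deviated together with r above 0.1 in 12 of 12 pairs at 0.5, 1, 2 and 24 h, 11 at 4 h and 10 at 6 h. The number of arrays limits the precision.

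Members and gene lists were chosen with earlier results of these data known. Named genes were all member probes, up to 4 genes of each list with most calls against control, and the 6 genes most and 3 least like KCNK3. Of the pump genes that this rule named, 1 is not reported here. Of the endothelial list 0 probes passed in either treated group, of the epithelial list 1 of 7 (SFTPC, lower in irradiated cells at 0.5 h), and of the immune list 1 of 4 (CD68, higher at 0.5 and 6 h in irradiated and at 0.5 h in bystander cells), where 9.89%, 10.5% and 6.99% of all probes passed. Alternatives were the scaling, background correction, value table, filters, blocks, fit, threshold and each replicate number left out. Sequences came from the scanner files.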

Additional observations from a re-analysis of the deposited data

Results flagged for a closer look

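Of 126 groups of 4 arrays examined over the 7 measured member probes, 7 held an array whose gap to its nearest neighbour took up more of the group's range than the 95% limit of Dixon's test, and chance flags about 1 in 20 groups. For KCNK3 A_23_P357724 these were replicate 4 of irradiated cells at 24 h, at 6.17 with the others from 9.33 to 9.62, replicate 4 of bystander cells at 24 h, at 6.49 with the others from 10.1 to 10.4, and replicate 4 of irradiated cells at 0.5 h, at 10.5 with the others from 8.75 to 9.04. For KCNK3 A_23_P91104 it was replicate 3 of irradiated cells at 6 h, at 6.82 against 5.74 to 5.82. KCNK2 A_23_P43713 was high in replicate 4 of irradiated cells at 6 h, at 7.48 against 6.41 to 6.45. KCNK1 A_23_P126075 was low in replicate 4 of bystander cells at 2 h, at 9.15 against 9.89 to 9.99. KCNK6 A_24_P262543 was low in replicate 3 of irradiated cells at 6 h, at 8.79 against 9.20 to 9.28.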

How the results depend on the processing

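Calls against control depended on the fit. The 4 irradiated calls stood beside 4.56% of all probes over the 6 times. They became 9 unscaled (7.79%), 1 with no filter (0.854%) and 0 with no replicate block (0.0594%). They became 8 with all 72 arrays in one fit (7.59%) and 2 to 7 with 1 replicate number left out (0.878% to 3.7%). Numbers 3 and 4 were exchanged at 0.5 h, so leaving out either number left out parts of 2 experiments. The 1 bystander call (1.35%) became 0 with no replicate block (0.0178%) or with the slide as a block (0.115%). It became 3 in the 72-array fit (3.24%) and 0 to 1 with 1 replicate number left out (0% to 2.51%). Without replicate 4, and at 0.5 h replicate 3, chosen after seeing the data, these counts were 8 and 2 (4.42% and 2.86%), and that of other potassium channel genes 19. The 16 calls among other potassium channel genes became 3 with no filter, 0 with no replicate block and 25 in the 72-array fit. They became 7 with the slide block (2.43% and 0.115% of all probes in irradiated and bystander cells). They became 6 at an adjusted p below 0.05 (1.09% and 0.417%) and 1 to 18 with 1 replicate number left out. The shares under the other settings are those above, with 0.341% of all probes for bystander cells under no filter. Between irradiated and bystander cells 0 members passed under every alternative. There the KCNK3 difference changed sign at 0.5 h under normexp (-0.037) and without replicate 3 (-0.20), and at 4 h with the slide block (0.065); with 1 experiment left out it ran from -0.20 to 0.19 at 0.5 h, -0.058 to 0.19 at 1 h and -0.14 to 0.040 at 4 h. The KCNK2 bystander difference at 0.5 h was 0.12 under normexp. The cause was not tested. Under 15 alternatives A_23_P357724 stayed below control at every time in both groups. A_23_P91104 did so except in bystander cells at 0.5 h (12 of 15) and 2 h (14 of 15). Of all member differences from control under alternatives, 1225 moved by less than the SD between pairs, 34 by more, and 1 that had passed changed sign. ST8SIA1 was the gene most like KCNK3 unscaled, under Spearman and with each replicate number left out, the alternatives run for likeness. Only 1 of the 6 closest genes was shared without replicate 4 and 2 under Spearman. Unscaled, the r of PLAUR, MPP3 and FABP5 was -0.51, -0.48 and -0.49.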
